A study of Mus musculus with 16 samples.

Results

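The heat shock proteins and cochaperones described here were 10 named genes, namely Hspa1a, Hspa1b, Hspa8, Hsp90aa1, Hsp90ab1, Dnajb1, Hsph1, Hspd1, Hspe1 and Hsf1. A feature of the array, which is a set of probes read as 1 value, counted as a member when the platform annotation gave it the symbol of any of these genes, alone or with other symbols. This gave 16 features of the 23410 that the annotation lists and of the 35557 in the table. Of the 16 features, 13 carried 1 symbol and 3 carried several, and together they covered 8 of the 10 genes. Hsp90ab1 and Hsf1 had no listed feature and are not analysed here.

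RNA came from macrophages grown out of the bone marrow of H3.3-HA knock-in mice, in which the replacement histone H3.3 carries an HA tag, and every group carried this knock-in. The cells were grown in DMEM with 10% FBS and 10% L-cell conditioned medium and received interferon-gamma, a lymphocyte cytokine that activates macrophages. Pretreated cells, whose sample titles name earlier interferon, gave 4 arrays at 0 h, 2 at 3 h and 2 at 6 h. Naive cells likewise gave 4 arrays at 0 h, 2 at 3 h and 2 at 6 h. The sources used here do not give the dose, the length of the pretreatment or the age of the mice. Every 3 h and 6 h culture had received interferon, so its effect and that of time or handling cannot be told apart in a change from 0 h. Nothing in the labels separates replicate cultures or animals from repeat arrays, so the p-values cover the spread between arrays, which may be technical.

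The 16 arrays fell into 2 array sets of 8 by the numbering in their titles. Set 1 held the 6 h arrays with replicates 1 and 2 at 0 h, and set 2 held the 3 h arrays with replicates 3 and 4 at 0 h. Column medians lay between 7.151 and 7.226 in set 1 and between 6.886 and 6.997 in set 2, so levels were compared within a set. In bulk RNA a change in the number of cells of a type and a change in RNA per cell cannot be told apart. The 9 measured macrophage markers averaged between 12.51 and 12.83 on the log2 scale over the 16 arrays. The lists of 8 other cell types averaged between 4.693 for NK cell markers and 7.301 for fibroblast markers.

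Heat shock proteins are chaperones, which bind unfolded or partly folded proteins and release them after rounds of ATP hydrolysis. Hsp70 proteins take their clients from J-domain cochaperones, give up ADP with the help of nucleotide exchange factors, and pass some clients on to Hsp90 or to the chaperonins. Stress sets the transcription factor HSF1 free from chaperones, and HSF1 binds heat shock elements, inverted repeats of the unit nGAAn, in front of the inducible members. In macrophages, chaperones are also known for folding signalling kinases and for handling antigenic peptides.

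The sequence before the start of transcription is shown for members with a given promoter window. The windows differed in how many exact matches to the spellings below they held. Other spellings of the element and sequence further upstream were not searched. A link between these matches and the changes in value was not tested. RefSeq promoter windows of GRCm38.p6 were given for 6 of the member genes (Hspa1a, Hspa1b, Hsph1, Dnajb1, Hspd1 and Hspe1). Both strands of the 250 bases before each start were searched for pairs of the element's unit, spelled GAANNTTC and TTCNNGAA. Of 32851 windows of that length, 6.69% held the first, 7.17% the second and 12.8% either. Capitals mark the matches, all sequences run 5′ to 3′, and positions count backwards from the start, with -1 next to it. The windows are chr17:34972157-34972406 (minus strand) for Hspa1a, chr17:34959239-34959488 (minus strand) for Hspa1b, chr5:149636337-149636586 (minus strand) for Hsph1 and chr8:83607925-83608174 (plus strand) for Dnajb1. The last sequence, chr1:55087933-55088147 (plus strand), lies between the start of Hspe1 and 1 of the listed starts of Hspd1, which are transcribed in opposite directions.
Hspa1a: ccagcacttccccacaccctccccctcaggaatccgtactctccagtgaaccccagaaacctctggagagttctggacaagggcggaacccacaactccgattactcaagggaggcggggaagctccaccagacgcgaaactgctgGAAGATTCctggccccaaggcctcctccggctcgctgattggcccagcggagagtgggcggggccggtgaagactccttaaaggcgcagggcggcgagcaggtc
Hspa1b: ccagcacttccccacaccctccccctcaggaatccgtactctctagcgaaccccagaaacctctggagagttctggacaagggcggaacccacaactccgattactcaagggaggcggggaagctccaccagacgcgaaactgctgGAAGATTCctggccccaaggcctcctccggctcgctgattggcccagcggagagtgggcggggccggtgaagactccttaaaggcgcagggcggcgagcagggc
Hsph1: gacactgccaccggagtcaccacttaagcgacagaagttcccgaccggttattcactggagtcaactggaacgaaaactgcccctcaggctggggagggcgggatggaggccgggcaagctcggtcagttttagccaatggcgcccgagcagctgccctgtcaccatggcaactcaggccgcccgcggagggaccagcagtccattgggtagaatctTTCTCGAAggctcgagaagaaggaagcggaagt
Dnajb1: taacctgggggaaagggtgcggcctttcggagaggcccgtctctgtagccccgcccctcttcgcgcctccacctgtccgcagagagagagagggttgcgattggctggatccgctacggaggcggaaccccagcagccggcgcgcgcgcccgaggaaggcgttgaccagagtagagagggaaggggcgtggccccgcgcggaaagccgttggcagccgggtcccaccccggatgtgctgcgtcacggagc
Hspd1 and Hspe1: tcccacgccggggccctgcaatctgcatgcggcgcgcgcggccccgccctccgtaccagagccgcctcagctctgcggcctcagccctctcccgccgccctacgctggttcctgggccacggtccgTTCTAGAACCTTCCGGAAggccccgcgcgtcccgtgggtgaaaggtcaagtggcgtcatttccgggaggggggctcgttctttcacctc

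The windows of Hspa1a and Hspa1b each held 1 match, gaagattc at positions -104 to -97. These windows differed at 3 of 250 bases, which are C44T, T47C and T249G from Hspa1a to Hspa1b, counted from 1 at the 5′ end of the window. The Hsph1 window shown held 1 match at positions -33 to -26, and counted from the other listed start of Hsph1 the same match lies at -54 to -47. Before Hspe1, 3 matches overlapped in 1 run, from -89 to -82, -84 to -77 and -79 to -72, and the same run lies before that start of Hspd1 on the other strand. The windows before both listed starts of Dnajb1 and before the other start of Hspd1 held none, which says only that these letters are not there. A match is a description of letters and not evidence of binding.

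Pretreated cells after 6 h had higher values of Dnajb1, and of the features that hold small nucleolar RNAs of the Hspa8 gene, than pretreated cells at 0 h, and no other member feature passed the test there. Naive cells after 6 h had higher values of these and also of the inducible Hsp70 genes and Hsp90aa1 than naive cells at 0 h. No member was called in the direct test of the pretreated against the naive response, given below. The small nucleolar RNA features had the largest changes among the members, 1.87 in pretreated and 1.85 in naive cells. Changes are log2 differences of the deposited log2 intensities, with the SE after ±, from 1 limma fit to all 16 arrays. A feature was called at a Benjamini-Hochberg adjusted p under 0.05 over the 23410 listed features.

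In pretreated cells 3 of 16 member features were called higher at 6 h and none lower, against 2.86% of all listed features called higher and 2.58% called lower. The median change was 0.18 over the members and -0.03 over all listed features. For 9 of the 16 features both 6 h arrays lay above both 0 h arrays of the set, which held for 16.7% of all listed features. In naive cells 8 of 16 member features were called higher at 6 h and none lower, against 7.4% of all listed features called higher and 9.91% called lower. The median there was 0.84 over the members and -0.02 over all, and 14 features had both 6 h arrays above both 0 h arrays, against 24.9% of all. Features of 1 gene are not independent measurements, and Hsph1, Dnajb1 and Hspa1b had a single feature, which Hspa1b shares with Hspa1a. The 2 small nucleolar RNA features, both called in pretreated and in naive cells, gave nearly the same values but enter these counts as 2.

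**Figure D1:**
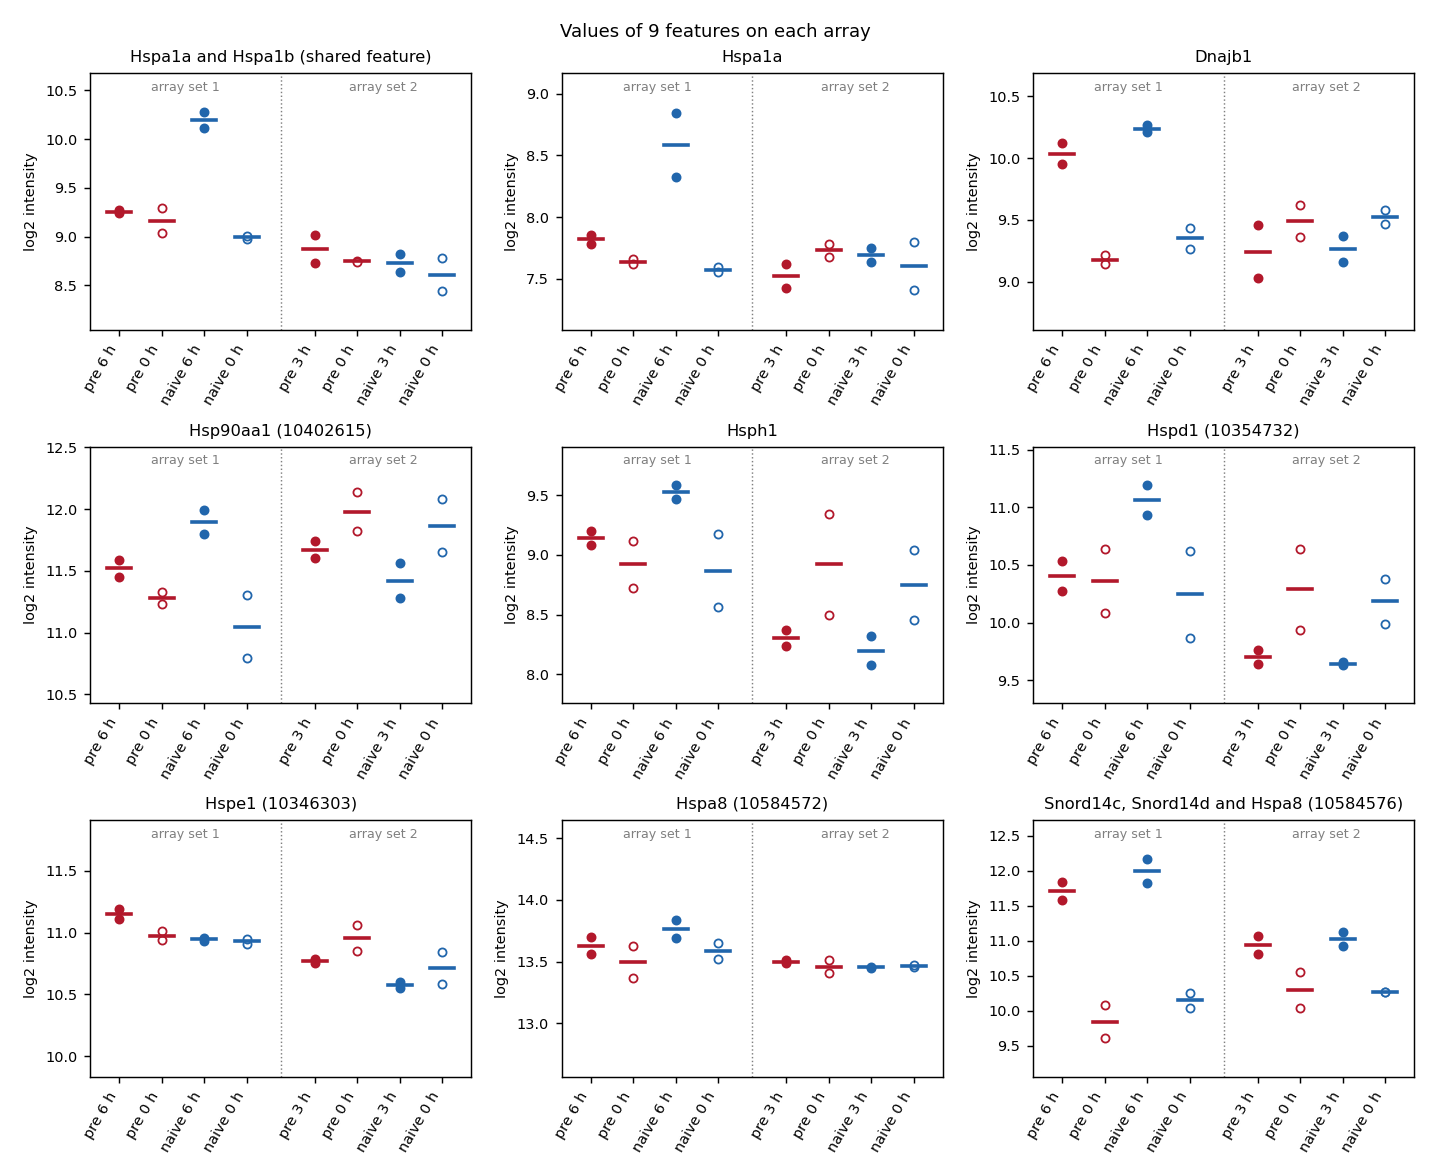
Log2 intensity (vertical axis, a separate scale in each panel) of 9 member features on each of the 16 arrays, with array set 1 left of the dotted line and set 2 right of it. Red marks pretreated and blue naive cells, open points mark 0 h, and each bar is the mean of 2 arrays. The pretreated 6 h points of the Hspa1a and Hspa1b feature, at 9.24 and 9.27, stand below the naive 6 h points at 10.11 and 10.28, whereas Dnajb1 and the Snord14 feature stand high at 6 h in both.

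Hspa1a and Hspa1b encode near-identical stress-inducible Hsp70 proteins, and 1 feature (10450367) carries both symbols. Its values were 9.24 and 9.27 in pretreated cells at 6 h, against 9.29 and 9.04 at 0 h in the same set. In naive cells they were 10.11 and 10.28 at 6 h, against 8.98 and 9.01 at 0 h. The pretreated 6 h arrays thus lay within the range of their own 0 h arrays, and both naive 6 h arrays lay above every other array of the set. The change in pretreated cells was 0.09 ± 0.14 (limma adjusted p = 0.936), with a 95% interval from -0.22 to 0.40. The rise in naive cells was 1.20 ± 0.14 (2.3-fold, adjusted p = 0.0001).

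A second feature (10450369) carries the symbol Hspa1a alone. It read 7.86 and 7.78 in pretreated cells at 6 h, against 7.66 and 7.62 at 0 h. In naive cells it read 8.33 and 8.84 at 6 h, against 7.59 and 7.56 at 0 h. The naive 6 h arrays were again the highest of the set, and they differed more from each other than any other pair of arrays of the same group and set did. The change in pretreated cells was 0.18 ± 0.16 (adjusted p = 0.807), and the rise in naive cells was 1.01 ± 0.16 (adjusted p = 0.000985). Probes for such near-identical genes can bind the RNA of both, so the features do not separate Hspa1a from Hspa1b.

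Hspa8 encodes the constitutive Hsp70, Hsc70, and has 3 features with its symbol alone. On the first (10368025) pretreated cells read 13.54 and 13.70 at 6 h, against 13.41 and 13.60 at 0 h. Naive cells read 13.65 and 13.82 at 6 h, against 13.45 and 13.56 at 0 h. The highest value of any feature on these arrays was 14.25 to 14.43 over the 16 columns, above these levels. Whether levels this high limit the changes that can be read was not tested. The changes of the 3 features were 0.11 to 0.13 in pretreated cells and 0.18 to 0.23 in naive cells (adjusted p between 0.204 and 0.369). None of them passed the test in any comparison.

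The 2 other features with the Hspa8 symbol (10584576 and 10584578) also carry Snord14c and Snord14d, box C/D small nucleolar RNAs that lie within the Hspa8 gene in the RefSeq gene table. Their values differed by at most 0.0121 on any array, so they are read as 1 measurement, although every count of member features includes both. The first read 11.59 and 11.84 in pretreated cells at 6 h, against 9.61 and 10.09 at 0 h. It read 11.83 and 12.17 in naive cells at 6 h, against 10.04 and 10.26 at 0 h. All 4 arrays at 6 h lay above the 4 arrays at 0 h of the set. The rise was 1.87 ± 0.20 in pretreated cells (3.65-fold, adjusted p = 0.000236) and 1.85 ± 0.20 in naive cells (3.6-fold, adjusted p = 5.37e-05). The difference between these responses was 0.02 ± 0.29, with an interval from -0.61 to 0.64 (adjusted p = 0.999).

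Snord14e, which also lies within Hspa8 and is no member, followed the same course. It read 10.80 and 11.19 in pretreated cells at 6 h, against 9.28 and 9.73 at 0 h. In naive cells it read 11.23 and 11.48 at 6 h, against 9.53 and 9.75 at 0 h. Its rise was 1.49 ± 0.21 in pretreated cells (adjusted p = 0.00111) and 1.71 ± 0.21 in naive cells (adjusted p = 0.000121). The features with the Hspa8 symbol alone and those of the small nucleolar RNAs gave different changes on the same arrays, with 95% intervals at 6 h that did not overlap. The part that the top of the scale plays in this was not tested.

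**Figure D2:**
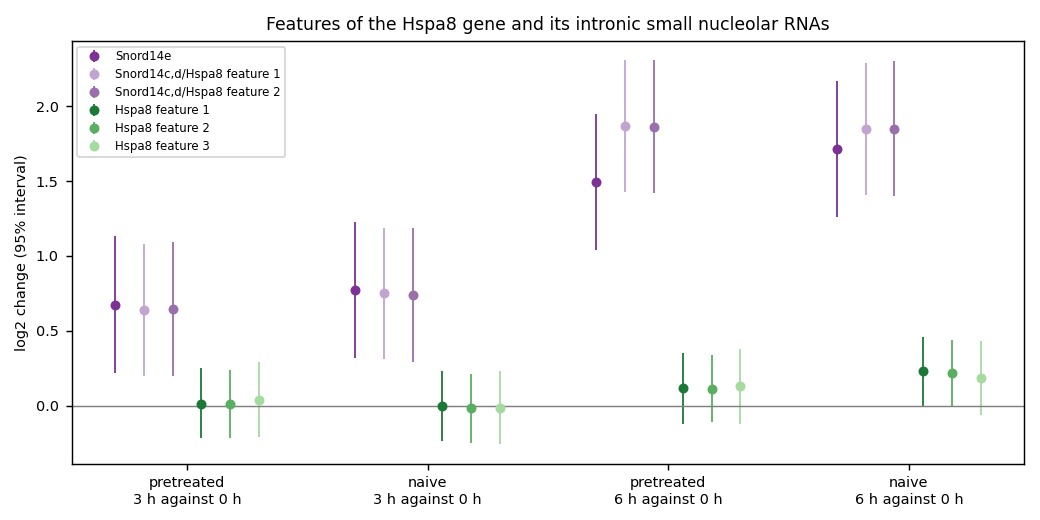
Log2 change from 0 h (vertical axis) with its 95% interval from the fit for Snord14e, the Snord14c and Snord14d features that also carry the Hspa8 symbol, and the 3 Hspa8 features, in pretreated and naive cells at 3 h and 6 h. The small nucleolar RNA features lie at 1.49 to 1.87 at 6 h, and the Hspa8 features at 0.11 to 0.23.

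Hsph1 encodes Hsp110, a nucleotide exchange factor of Hsp70. It read 9.20 and 9.08 in pretreated cells at 6 h, against 8.72 and 9.12 at 0 h, and 9.58 and 9.47 in naive cells at 6 h, against 9.17 and 8.57 at 0 h. Only the naive 6 h arrays lay clear of their 0 h arrays, and the arrays of each 0 h group lay further apart than those of each 6 h group. The change was 0.22 ± 0.28 in pretreated cells (adjusted p = 0.905) and 0.66 ± 0.28 in naive cells (adjusted p = 0.144), so neither passed the test.

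Dnajb1 encodes Hsp40, the J-domain cochaperone that brings clients to Hsp70 and stimulates its ATPase. It read 9.95 and 10.12 in pretreated cells at 6 h, against 9.14 and 9.21 at 0 h. In naive cells it read 10.27 and 10.21 at 6 h, against 9.43 and 9.27 at 0 h. Every 6 h array lay above every 0 h array of the set. The rise was 0.86 ± 0.15 in pretreated cells (1.81-fold, adjusted p = 0.00472) and 0.89 ± 0.15 in naive cells (1.85-fold, adjusted p = 0.00123). The difference between the responses was -0.03 ± 0.21, with an interval from -0.49 to 0.43. Without pretreated 6 h replicate 2 the rise in pretreated cells had an adjusted p of 0.0596.

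Hsp90aa1 encodes the inducible cytosolic Hsp90, which matures kinases and steroid receptors, and has 3 features. On 10402615 pretreated cells read 11.59 and 11.45 at 6 h, against 11.23 and 11.33 at 0 h. Naive cells read 11.99 and 11.80 at 6 h, against 11.30 and 10.79 at 0 h. The 6 h arrays lay above the 0 h arrays in both, and naive 0 h replicate 2 was the lowest array of the set. The changes of the 3 features were 0.21 to 0.27 in pretreated cells (adjusted p between 0.648 and 0.829) and 0.85 to 0.92 in naive cells (adjusted p between 0.00378 and 0.00818). The calls in naive cells rest in part on that low array, since without naive 0 h replicate 2 none of the 3 was called. Without naive 6 h replicate 1, 2 of the 3 were not called, and the highest adjusted p with any of these arrays left out was 0.104.

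Hspd1 and Hspe1 encode Hsp60 and Hsp10, the barrel and the lid of the mitochondrial chaperonin, and share the stretch of DNA shown above. The first Hspd1 feature (10354732) read 10.27 and 10.53 in pretreated cells at 6 h, against 10.08 and 10.64 at 0 h. It read 11.19 and 10.93 in naive cells at 6 h, against 10.62 and 9.87 at 0 h. Only the naive 6 h arrays lay clear of their 0 h arrays, and the arrays of each 0 h group lay further apart than those of each 6 h group. The change in pretreated cells was 0.04 on this feature and on the second (10375240). In naive cells it was 0.82 ± 0.27 (adjusted p = 0.0606) on the first and 0.72 ± 0.23 (adjusted p = 0.0518) on the second.

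The first feature of Hspe1 (10346303) read 11.11 and 11.19 in pretreated cells at 6 h, against 10.94 and 11.01 at 0 h, and 10.93 and 10.96 in naive cells at 6 h, against 10.91 and 10.95 at 0 h. The pretreated 6 h arrays lay just above their 0 h arrays, and the naive 6 h arrays overlapped theirs. The change was 0.18 ± 0.11 in pretreated cells (adjusted p = 0.578) and 0.02 ± 0.11 in naive cells (adjusted p = 0.971), with an interval from -0.23 to 0.26 for naive cells. The difference between Hspd1 and Hspe1 was not tested.

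**Figure D3:**
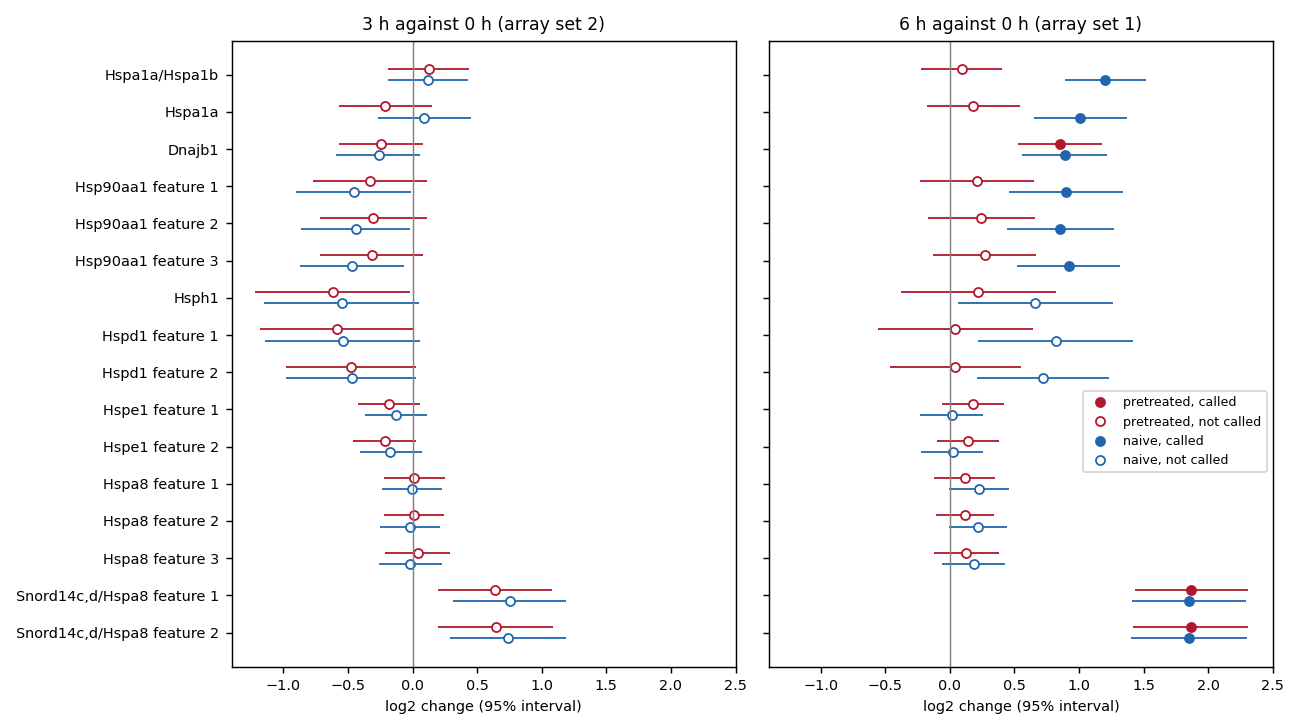
Log2 change from 0 h (horizontal axis) with its 95% interval for the 16 member features, at 3 h on the left and 6 h on the right, with pretreated cells in red above naive cells in blue for each feature. Filled points passed an adjusted p under 0.05, and the filled red points at 6 h are Dnajb1 at 0.86 and the Snord14 features at about 1.87.

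At 3 h limma called no member feature in pretreated cells, against 2.7% of all listed features, and none in naive cells, against 5.33%. At an unadjusted p under 0.05 there were 3 member features in pretreated cells, with 13.0% of all listed features, and 5 in naive cells, with 14.8%. The features that had moved most at 6 h did not share a direction at 3 h. The Hspa1a and Hspa1b feature read 8.72 and 9.01 in pretreated cells at 3 h, against 8.74 and 8.74 at 0 h, and 8.64 and 8.82 in naive cells at 3 h, against 8.44 and 8.78 at 0 h. These arrays overlapped, with changes of 0.13 ± 0.14 and 0.12 ± 0.14. The first Snord14 feature read 10.81 and 11.07 in pretreated cells at 3 h, against 10.04 and 10.56 at 0 h, and 10.93 and 11.12 in naive cells at 3 h, against 10.27 and 10.27 at 0 h. The 3 h arrays lay above the 0 h arrays in both, with changes of 0.64 ± 0.20 (adjusted p = 0.15) and 0.75 ± 0.20 (adjusted p = 0.0536).

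Hsp90aa1, Hspd1 and Hsph1 had lower means at 3 h than at 0 h, without passing the test. Hsp90aa1 (10402615) read 11.60 and 11.74 in pretreated cells at 3 h, against 11.82 and 12.14 at 0 h, and 11.28 and 11.56 in naive cells at 3 h, against 11.65 and 12.08 at 0 h. Hsph1 read 8.24 and 8.37 in pretreated cells at 3 h, against 8.50 and 9.34 at 0 h, and 8.08 and 8.32 in naive cells at 3 h, against 8.45 and 9.04 at 0 h. In each case both 3 h arrays lay below both 0 h arrays, which held for 9 of 16 member features in pretreated and 9 in naive cells, against 20.6% and 24.5% of all listed features. The changes of Hsph1 were -0.62 ± 0.28 (adjusted p = 0.366) and -0.55 ± 0.28 (adjusted p = 0.408). Dnajb1 read 9.46 and 9.03 in pretreated cells at 3 h, against 9.36 and 9.62 at 0 h, and 9.37 and 9.16 in naive cells at 3 h, against 9.47 and 9.58 at 0 h.

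The course over time was tested as the 6 h change minus the 3 h change, which sets set 1 against set 2. In pretreated cells no member passed and 0% of all listed features were called, with 6 members and 7.13% of all features at an unadjusted p under 0.05. Dnajb1 came nearest there, at 1.10 ± 0.21 (adjusted p = 0.1). In naive cells 5 of 16 member features had a larger 6 h change, against 0.645% of all listed features. These were the feature of Hspa1a and Hspa1b at 1.08 ± 0.20 (adjusted p = 0.0216), Dnajb1 and the 3 Hsp90aa1 features. The Hspa1a feature at 0.92 ± 0.23 (adjusted p = 0.0764) and the Snord14 feature at 1.10 ± 0.29 (adjusted p = 0.0844) did not pass. The naive calls depended on single arrays, since each was lost when any of 4 to 7 of the 8 arrays was left out.

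Before restimulation the pretreated cells did not differ from naive cells by the test in any member. At 0 h, with 4 arrays against 4, none of the 16 features was called, against 1.13% of all listed features, and none had an unadjusted p under 0.05, against 7.68% of all. The feature of Hspa1a and Hspa1b read 9.29, 9.04, 8.74 and 8.74 in pretreated cells, against 8.98, 9.01, 8.44 and 8.78 in naive cells. The arrays overlapped in set 2. In set 1 both pretreated arrays lay above both naive arrays, the nearest at 9.04 against 9.01. The difference over both sets was 0.15 ± 0.10, with an interval from -0.07 to 0.37. The differences of the 16 features ranged from -0.14 to 0.20, with a median of 0.11 against 0.01 over all listed features. At 3 h no member was called between pretreated and naive cells, against 0.0128% of all listed features, and none had an unadjusted p under 0.05, against 3.56% of all. For 7 of the 16 features both pretreated 3 h arrays lay above both naive 3 h arrays, against 13.0% of all. For 1 feature both lay below, against 14.5% of all.

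At 6 h the feature of Hspa1a and Hspa1b was lower in pretreated than in naive cells, by the values given above (-0.94 ± 0.14, a ratio of 0.521, adjusted p = 0.0152). It was the 1 member feature of 16 called lower, against 0.261% of all listed features, and none was called higher, against 0.402%. The Hspa1a feature differed by -0.76 ± 0.16 (adjusted p = 0.0611), the Hsp90aa1 features by -0.46 to -0.37 (adjusted p between 0.323 and 0.496) and Dnajb1 by -0.21 ± 0.15 (adjusted p = 0.748). For 9 features, those of Hspd1 and Hsph1 among them, both pretreated arrays lay below both naive arrays, against 19.1% of all. For the 2 Hspe1 features both lay above, against 23.6% of all. The call for Hspa1a and Hspa1b was lost without naive 6 h replicate 1, pretreated 6 h replicate 1 or pretreated 6 h replicate 2, with an adjusted p of up to 0.16.

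Whether the response itself differed was tested as the change of pretreated cells minus that of naive cells. This comparison shares its 6 h and 0 h arrays with the comparisons above and is not independent of them. No member was called at 6 h, against 0.175% of all listed features, or at 3 h, against 0.15%. At an unadjusted p under 0.05 there were 5 members at 6 h, all with a smaller change in pretreated cells, with 9.29% of all listed features, and none at 3 h, with 1.76%. The feature of Hspa1a and Hspa1b came nearest, at -1.11 ± 0.20 with an interval from -1.55 to -0.67 (adjusted p = 0.0594), followed by Hspa1a at -0.83 ± 0.23 (adjusted p = 0.227) and the Hsp90aa1 features at -0.69 to -0.61. Whether the feature of Hspa1a and Hspa1b passed depended on the model, since its adjusted p was 0.0162 with the half-set block and 0.00796 with an additive array-set term, and up to 0.247 over the alternatives that kept every array of the comparison. With the additive term the Hspa1a feature passed too (adjusted p = 0.0491), and with the block it did not (adjusted p = 0.095). The block gives arrays with the earlier and the later title positions of a set their own level. Of the 16 differences at 6 h, 12 were below 0 and 4 above, and those of both Hspd1 features and of Hsph1 were among the 12. For Dnajb1, Hspe1 and the Hspa8 features the interval of the difference included 0 and stayed within -0.49 and 0.51.

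The members also varied among arrays of the same group. The differences of Hsph1, Hspd1 and Hsp90aa1 between the 2 arrays of a group and set went together over the 8 such pairs. Correlations of these differences were computed without subtracting their mean, so the order of the 2 arrays in a pair does not matter. With Hsph1 they were 0.981 for the second Hspd1 feature, 0.881 for the first, and 0.9 to 0.953 for the 3 Hsp90aa1 features. They were 0.633 and 0.693 for Hspe1, 0.372 for Dnajb1, 0.184 for the feature of Hspa1a and Hspa1b and 0.143 to 0.178 for Hspa8. For Hspa8 the array with the later title position was the higher in every pair. A correlation with the mean subtracted can differ, in sign as well, and is not given here. The points of such a correlation share their arrays, so anything that affects a whole array enters all of them alike. The pair farthest apart for Hsph1 was pretreated 0 h in set 2, at 8.50 and 9.34, and the next was naive 0 h in set 1, at 9.17 and 8.57.

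**Figure D4:**
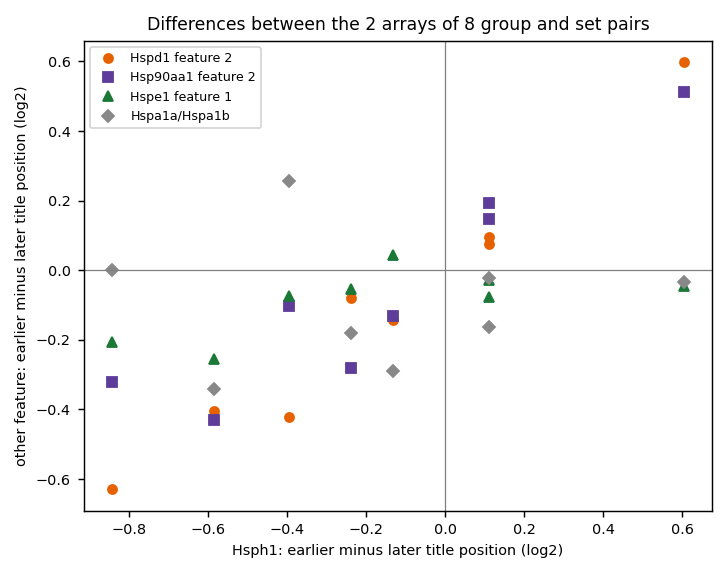
Difference in log2 intensity between the 2 arrays of each of the 8 pairs of group and array set, with Hsph1 on the horizontal axis and 4 other features on the vertical axis. Each difference is the array with the earlier title position in its set minus the later one. Hspd1 (r = 0.981) and Hsp90aa1 (r = 0.908) lie along a rising line, and the feature of Hspa1a and Hspa1b (r = 0.184) does not. Each r was computed without subtracting the mean difference.

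Genes whose pattern was most like a member were sought among 2060 features, over the 16 arrays with each set centred on its own mean. They were sought for the 5 member features that spanned at least 1 between group means. Ptges (r = 0.889), the terminal synthase of prostaglandin E, Maff (0.887) and Lpar1 (0.885) came first for the feature of Hspa1a and Hspa1b. Ptges (0.866), Ak4 (0.864) and Pdia5 (0.824) came first for Hspa1a. Egln1 (0.959), a prolyl hydroxylase that marks hypoxia-inducible factors for destruction, Sh3bp4 (0.946) and Prkd3 (0.934) came first for Dnajb1. Snord14e (0.992), Pdk3 (0.979) and Hectd4 (0.968) came first for the first Snord14 feature. These correlations describe likeness across the same arrays and groups and say nothing on shared control.

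The partners of the members were followed through lists of chaperone genes that hold no member. Counts are read against the shares of called features given above. In naive cells at 6 h, 4 of 12 cytosolic J-domain cochaperones rose and none fell, with a median change of 0.32 over the list. Those were Dnajc21, a ribosome biogenesis factor, at 1.50 ± 0.29, Dnaja2 at 1.12 ± 0.16, Dnaja1 at 0.77 ± 0.12 and Dnajb5 at 0.51 ± 0.16. Of 13 Hsp90 cochaperones 2 rose, which were Stip1, the adaptor that links Hsp70 to Hsp90, at 0.78 ± 0.22, and Ptges3, the p23 cochaperone, at 0.78 ± 0.19 (list median 0.23). Of 10 Hsp70 exchange factors and binding partners 2 rose and 2 fell (list median 0.04). Bag3, which links Hsp70 to autophagy, changed by 0.52 ± 0.14, Bag2 by 0.53 ± 0.16, Bag4 by -1.04 ± 0.13 and Bag6 by -0.32 ± 0.10.

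Among 8 relatives of Hsp70 and Hsp110, 1 rose in naive cells at 6 h, namely Hspa2, an Hsp70 best known from germ cells, at 1.21 ± 0.14. Hspa2 was also called at 3 h, at 1.01 ± 0.14 in pretreated cells (adjusted p = 0.00188) and 1.08 ± 0.14 in naive cells (adjusted p = 0.000458), when no member was. Of 14 subunits of the TRiC chaperonin and prefoldin 2 rose, Cct8 at 0.81 ± 0.22 and Cct6a at 0.62 ± 0.20. Of 9 small heat shock proteins none rose and Hspb6 fell, at -1.19 ± 0.19. Of 11 mitochondrial chaperones and proteases 1 rose, the J-domain protein Dnaja3 at 0.42 ± 0.13. Of 6 measured heat shock factors and regulators none was called at 6 h, and Hsf3 was lower in naive cells at 3 h, at -0.60 ± 0.13 (adjusted p = 0.0162).

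Chaperones of the endoplasmic reticulum were listed together with genes of its unfolded protein response, which are not all chaperones. This list, the longest of the chaperone lists, had the largest number called among them in naive cells at 6 h. In pretreated cells at 6 h 3 of 23 rose, which were Hyou1, the Hsp110 relative of this compartment, at 0.94 ± 0.22, Manf at 0.81 ± 0.20 and Atf6, a stress sensor, at 0.50 ± 0.12 (list median 0.27). In naive cells at 6 h 11 of 23 rose and none fell, with a median of 0.58. They included Creld2 at 1.49 ± 0.28, Manf at 1.45 ± 0.20, the disulfide isomerase Pdia6 at 1.42 ± 0.27 and Hyou1 at 1.38 ± 0.22. Bag2 at 0.74 ± 0.16 was the 1 gene of the other chaperone lists that was called in pretreated cells at 6 h. Between pretreated and naive cells at 6 h the 1 gene called over all these lists was Dnaja2, at -0.86 ± 0.16 (adjusted p = 0.0386).

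Of these list calls at 6 h, those of Hspa2, Dnaja1, Dnaja2, Dnajc21, Bag4, Hspb6, Creld2, Manf, Pdia6 and Hyou1 in naive cells held with any 1 array left out. Those of Dnajb5, Stip1, Ptges3, Bag2, Bag3, Bag6, Cct6a, Cct8 and Dnaja3 in naive cells, and of Bag2, Hyou1, Manf and Atf6 in pretreated cells, did not. Among these, the calls of Bag2 and Bag6 in naive cells and of Hyou1, Manf and Atf6 in pretreated cells were lost whichever array was left out. Leaving out naive 0 h replicate 2 or naive 6 h replicate 1 ended the call of Stip1, Ptges3, Bag3, Cct6a, Cct8 and Dnaja3, as it did for 2 of the 3 Hsp90aa1 features. The Dnaja2 difference at 6 h was lost without naive 6 h replicate 1 or either pretreated 6 h array, with an adjusted p of up to 0.391. The Hspa2 calls at 3 h held with any 1 array left out, and that of Hsf3 held in 1 of 4 such fits.

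Immediate early genes, which also react to handling, moved in the same samples. In pretreated cells at 6 h 1 of 18 rose, Zfp36 at 0.79 ± 0.14, and 1 fell, Dusp1 at -1.90 ± 0.43. In naive cells at 6 h 5 of 18 rose and 2 fell, among them Egr2 at 2.23 ± 0.43, Jun at 0.92 ± 0.16, Nr4a1 at -1.10 ± 0.23 and Dusp1 at -1.61 ± 0.43. With any 1 array left out, the calls of Egr2 and Jun in naive cells held. Those of Dusp1 were lost whichever array of the comparison was left out, in pretreated and in naive cells. The call of Nr4a1 in naive cells was lost without naive 6 h replicate 1, and that of Zfp36 in pretreated cells without pretreated 6 h replicate 2. Between pretreated and naive cells at 6 h, where the feature of Hspa1a and Hspa1b was called lower, 2 of the 18 were called lower and none higher, Egr2 at -2.45 ± 0.43 (adjusted p = 0.0316) and Ier3 at -1.32 ± 0.20 (adjusted p = 0.0136). Both calls were lost without naive 6 h replicate 1 or either pretreated 6 h array. The interferon check genes rose in all cases, 11 of 11 at 6 h with a median of 1.70 in pretreated and 3.56 in naive cells. Of the markers of other cell types, 1 was called higher in pretreated cells at 6 h, and 2 higher and 2 lower in naive cells at 6 h. Their part in the members' changes was not tested.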

How the data were processed

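Total RNA was biotin-labelled and read on 16 Affymetrix mouse gene arrays of 1 colour, per the labels. The authors deposited log2 intensities for 35557 features, with a background correction and normalization that the sources used here do not give. Symbols came from the platform annotation, which lists 23410 features, 21789 with 1 symbol and 1621 with several. No 2 arrays held identical values.

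The deposited log2 values were used as they stand. The linear model (limma 3.58.1, R 4.3.3) gave each of 8 combinations of group and array set its own mean and left 8 residual degrees of freedom, to which eBayes added 4.136. Contrasts were taken within a set, averaged over both sets at 0 h, and Benjamini-Hochberg adjustment ran over all 23410 listed features. The number of arrays, 2 per group and set, limits the precision. On simulated data with 200 of 23410 features changed, a log2 change of 1 was recovered in 82% for naive cells at 6 h, 83% for pretreated cells at 6 h and 54% for the difference of their responses.

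The members and the gene lists were chosen with earlier results of these data known. Named genes are all member features, up to 4 called genes with the largest absolute change per list and comparison (1 feature a gene, the one with the highest mean), and the 3 features most like each member feature that spans at least 1, among those with a mean of at least 6.5. The text names a part of them. Alternatives were a block for half-sets, an additive array-set term or none, each comparison's own set or sets alone, all features of the table, 1 feature a gene, dim features (mean under 6.5) left out, median centring, array weights, eBayes with trend and robust, quantile normalization again, a 2-fold limit, and each array left out. Figures were drawn with matplotlib 3.10.9.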

Additional observations from a re-analysis of the deposited data

Results flagged for a closer look

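In naive cells the 6 h change and the 3 h change of 5 member features differed by limma's test of the difference itself (tested in the same fit as the other comparisons). The 6 h minus 3 h difference was 1.355 (adjusted p = 0.0385), 1.295 (adjusted p = 0.0362) and 1.394 (adjusted p = 0.0212) for the 3 Hsp90aa1 features. It was 1.081 (adjusted p = 0.0216) for the feature of Hspa1a and Hspa1b and 1.151 (adjusted p = 0.0204) for Dnajb1. The 6 h and 3 h changes come from different array sets, so time and array set cannot be told apart in these differences. No array was flagged within the 32 groups of 4 arrays that were examined, which were the 2 groups at 0 h for each member feature. Their values were taken over both sets, each set centred on its own mean. The 3 h and 6 h groups, with 2 arrays each, could not be examined. The rule also did not flag naive 0 h replicate 2, on which the Hsp90aa1 calls rest in part.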

How the results depend on the processing

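Counts of member features called are given out of 16, or out of 7 with 1 feature a gene. The share of all listed features called under each alternative is not given here. A shift in these counts is therefore not read as particular to the members. For pretreated cells at 6 h the 3 calls became 1 with 1 feature a gene and ranged from 2 to 3 with 1 array left out. For naive cells at 6 h the 8 calls became 4 with 1 feature a gene and 4 with a 2-fold limit as well, and ranged from 5 to 10 with 1 array left out (5 without naive 0 h replicate 2). For pretreated cells at 3 h the 0 calls became 2 with an additive array-set term and 2 with the half-set block. For naive cells at 3 h the 0 calls became 1 with no array-set term or with quantile normalization again, and 2 with the half-set block, with dim features left out, with trend and robust, or with array weights. For pretreated against naive cells at 6 h the 1 call became 2 with an additive term, the half-set block, quantile normalization again or array weights, and 0 with no array-set term, 1 feature a gene or a 2-fold limit, and ranged from 0 to 1 with 1 array left out. For the difference of the 6 h responses the 0 calls became 2 with an additive term and 1 with the half-set block. For the 6 h minus 3 h difference the 5 calls in naive cells became 8 with no array-set term, 10 with the half-set block or array weights, and 2 with all features or with 1 feature a gene, and ranged from 0 to 6 with 1 array left out. In pretreated cells the 0 calls became 2 with the half-set block and 1 with quantile normalization again. Testing 1 feature a gene kept only features with 1 symbol, so the feature of Hspa1a and Hspa1b and the Snord14 features were not tested. The former was the 1 member feature called between pretreated and naive cells at 6 h, and it could not be called in that setting. The setting thus leaves fewer members to call, and the cause of the other shifts was not tested.

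With no array-set term none of the 3 Hsp90aa1 features was called at 6 h in naive cells. Over single member features and the alternatives other than leaving out an array, 1897 of 1965 results kept direction and side of the threshold, 17 lost a call, 51 gained one and none turned a called direction. With 1 array left out, 985 of 1024 did, 35 lost a call and 4 gained one. Where a group is left with 1 array in its set, that array is assumed to vary like the others. Of 78 named list genes and comparisons, 40 stayed called whichever array was left out. The labels number no replicates, so the half-set block, by title position, was the paired analysis that could be made. The half-sets share title positions only, and deviations of their arrays correlated at 0.17 to 0.675 in set 1 and 0.0669 to 0.632 in set 2. The additive term was not run for the 6 h minus 3 h differences. With no array-set term these differences set the 6 h arrays of set 1 directly against the 3 h arrays of set 2. They then cancel no set effect, so the 8 calls given above for naive cells in that setting may hold it.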

Other observations

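Other small nucleolar RNA features were counted after the values of the Snord14 features had been seen. Of 95 listed small nucleolar RNA features without a member symbol, 7 rose in pretreated cells at 6 h (median change 0.22) and 8 rose in naive cells at 6 h (median 0.13), with none called lower in either. The 7 in pretreated cells were 7.37% of the 95, beside 2.86% of all listed features called higher, and the 8 in naive cells were 8.42% of the 95, beside 7.4% of all listed features called higher. Of the 50 with a mean of at least 6.5, 7 (14.0%) rose in pretreated and 4 (8.0%) in naive cells at 6 h. The share of all features with such a mean is not given here. The 8 called in naive cells, dim ones included, were Snord14e at 1.71 ± 0.21, Snord37 at 1.05 ± 0.30, Snord42b at 1.02 ± 0.22 and Snora41 at 0.86 ± 0.20. The others were Snora69 at 0.84 ± 0.26, Snora33 at 0.67 ± 0.18 and 2 features of Snord1b and Snord1c at 0.99 ± 0.30 each. At 3 h none of the 95 was called by limma in pretreated or naive cells.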
